A study of Arabidopsis thaliana with 4 samples.

Results

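The genes described here are those of the chloroplast genome, the small circular DNA that the organelle keeps from its cyanobacterial ancestor. They were taken as the single-gene probe sets whose lower-case symbol in the platform table names a plastid gene (psa, psb, pet, ndh, rpl, rps, rpo and ycf genes, 6 atp genes, rbcL, matK, accD, clpP, ccsA and cemA) and whose gene lies on the chloroplast genome in RefSeq. That gave 69 genes with 1 probe set each, among 22746 plant probe sets of the Affymetrix ATH1 array and out of 78 protein-coding gene names of that genome. All 69 matches lay on the chloroplast genome, so none had to be left out as mitochondrial, and all 69 probe sets read above the background of their array on all 4 arrays. That background is low. Of all plant probe sets, 72.0% (smg7b replicate 1) to 75.5% (wild-type replicate 2) passed it on an array. The study compared 2 samples of wild-type Arabidopsis thaliana (Col-0) with 2 samples of the smg7b T-DNA insertion line SALK_050115 in the Col-0 background, to find targets of SMG7b, a factor of the decay of mRNAs with premature stop codons. RNA came from whole plants 17 days after germination, kept at 22 °C and 65% humidity in constant light, and each sample was hybridised to its own array. The titles of both mutant samples carry the name smg7b-1, so the mutant is 1 line, with no second insertion line or rescued line among these samples. The labels do not say whether replicates came from separate plants, so every p-value here rests on the variation among 4 arrays that may be technical repeats.

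The chloroplast genome encodes core subunits of the photosynthetic complexes of the thylakoid membrane, the large subunit of Rubisco, part of the organelle's own ribosome and RNA polymerase, and a few other proteins. All these complexes also hold nuclear-encoded subunits. Many plastid genes lie in operons, are transcribed together and are then cut, spliced and edited. Photosystem and rbcL genes are read mainly by the bacterial-type plastid-encoded polymerase (PEP), and the genes of PEP's own catalytic subunits mainly by a nuclear-encoded phage-type polymerase (NEP). Plastid mRNAs are mostly stable without a long poly(A) tail, and a tail there marks RNA for degradation. The One-Cycle labelling named in the labels starts from poly(A), so a signal here reads the plastid RNA copied under those conditions.

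The gene taken to be targeted in the mutant is AT1G28260, known as SMG7L; the files do not pair the insertion line with a gene. Its signal was 49.7 and 46.8 on the wild-type arrays but 16.7 and 14.4 on the mutant arrays, a log2 change of -1.64 (SE 0.30, adjusted p = 0.00253 in limma), and the place of the insertion within the gene is not given by the labels. Signals of all arrays had been scaled to the same level, with a 2% trimmed mean of 100.01 on each. The arrays differed in the ratio of 3' to 5' signal of the Actin control, a measure of how far labelled RNA reaches towards the 5' end. It was 2.22 in wild-type replicate 1, 8.62 in wild-type replicate 2, 25.8 in smg7b replicate 1 and 9.65 in smg7b replicate 2, and that of the GAPDH control was 0.960, 1.22, 2.26 and 1.41 in the same order. Wild-type replicate 1 thus stood apart with the lowest ratios and smg7b replicate 1 with the highest. Both mutant arrays had higher ratios than both wild-type arrays, so ratio and genotype cannot be fully told apart.

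The chloroplast-encoded genes gave few calls between the genotypes and differed much between the wild-type arrays. Their median signal over the 68 genes tested was 1027 in wild-type replicate 1 and 1459 in wild-type replicate 2, against 1498 and 1303 in smg7b replicates 1 and 2. Wild-type replicate 2 therefore lay between the mutant arrays, and wild-type replicate 1 below all others. The summed signal of the 69 genes showed the same order, with 2.67% of all plant signal in wild-type replicate 1, 4.02% in wild-type replicate 2, 4.41% in smg7b replicate 1 and 3.66% in smg7b replicate 2. The order of these medians follows that of the Actin ratio except between wild-type replicate 2 and smg7b replicate 2, and the part of RNA quality in it was not tested. In whole plants, fewer chloroplast-rich cells and less chloroplast RNA per cell cannot be told apart.

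Of the 68 genes tested, 1 was higher in smg7b (atpH) and 1 lower (psaA) when limma's p-values were adjusted by Benjamini-Hochberg over all 13648 probe sets tested and held to 0.05. That is 2.94% of these genes, against 20.3% of all tested probe sets (11.3% higher, 9% lower). At an unadjusted p under 0.05 in limma there were 9 of the 68 genes, psaA, psbL, atpH, ndhH, rbcL, rps15, rps2, rpoC1 and rpoC2. Over all tested probe sets at least 20.3% pass that threshold, since every adjusted call does. The counts by complex given below at an unadjusted p stand beside that same share. The 69th gene, ndhF, was too dim to be tested. The 2 genotypes did not overlap for 16 of the 68 genes (23.5%, against 61.3% of all tested probe sets). In 11 of them smg7b was above, 16.2% against a background of 30.1%, and in 5 below, 7.35% against 31.2%. The median log2 difference, smg7b minus wild type, was 0.29 over these genes and -0.01 over all tested probe sets, with 56 positive and 12 negative values from -0.87 to 0.83. No gene differed by more than 2-fold. For 57 of the 68 genes the gap between the wild-type arrays was larger than the difference between genotype means (83.8%, against 40.3% of all tested probe sets).

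The gap between the wild-type arrays ran one way. Wild-type replicate 2 was above replicate 1 for 61 of the 68 genes (89.7%, against 52.3% of all tested probe sets), with a median log2 gap of 0.69 against 0.02. In 11 genes it was more than 2-fold, which holds for 1.31% of all tested probe sets. In the mutant, replicate 1 was above replicate 2 for 61 of the 68 genes (against 53.7% of all tested probe sets). The median gap was smaller, -0.25 as replicate 2 minus replicate 1 (against -0.03). Wild-type replicate 1 was the lowest of the 4 arrays for 53 genes and smg7b replicate 1 the highest for 38. Over all 13648 tested probe sets these counts were 4258 and 4197.

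**Figure D1:**
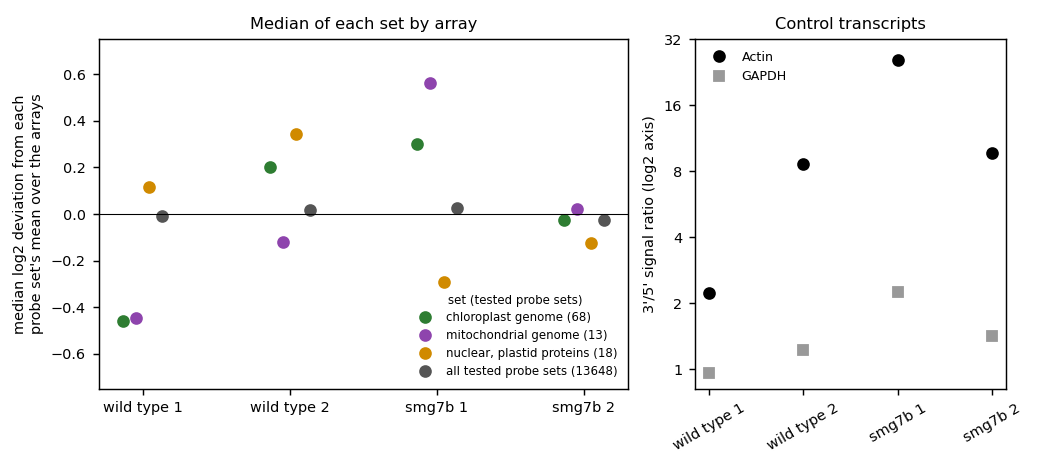
The left panel plots, for each array, the median log2 deviation of a set's tested probe sets from their own mean over the 4 arrays, for the chloroplast genome (68 probe sets), the mitochondrial genome (13), the nuclear genes for plastid proteins (18) and all tested probe sets (13648). The right panel gives the 3'/5' signal ratio of the Actin and GAPDH controls on a log2 axis. Chloroplast-encoded genes sit lowest in wild type 1 (-0.46) and highest in smg7b 1 (0.30), the arrays with the lowest and the highest Actin ratio.

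**Figure D2:**
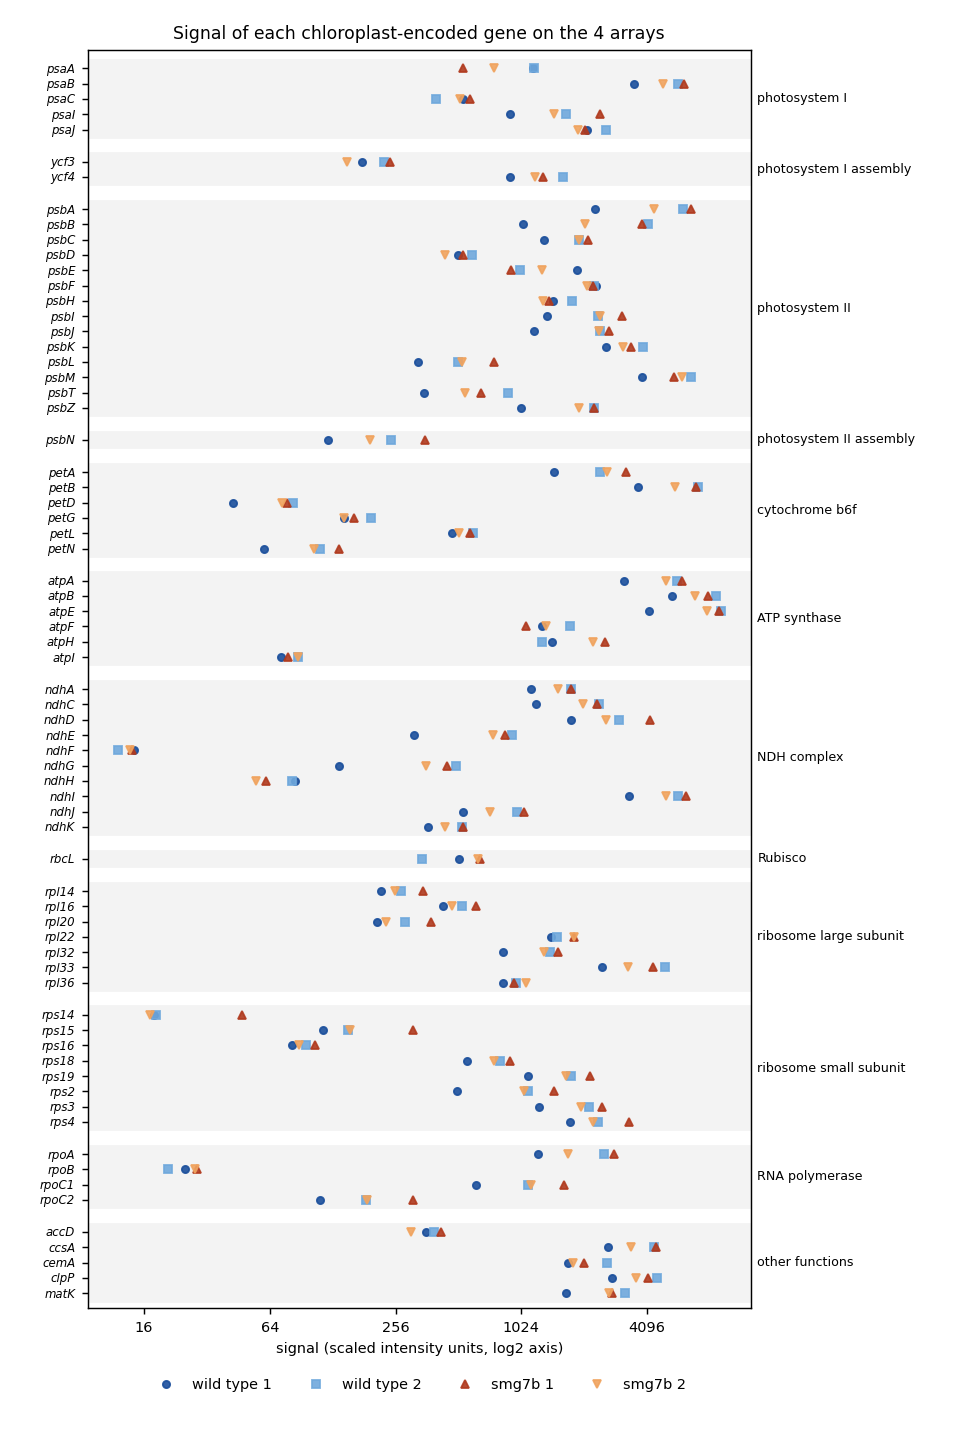
Each row is a chloroplast-encoded gene, grouped by complex, and each symbol its signal on 1 of the 4 arrays, in scaled intensity units on a log2 axis. Wild type 1 (dark circles) lies left of the other 3 arrays in most rows. The psaA and atpH rows are among those in which both wild-type arrays lie on the same side of both mutant arrays.

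Photosystem I, which passes electrons on to ferredoxin, held the 1 gene called lower among the 68. Its reaction centre is a pair of large proteins encoded by psaA and psaB. The psaA gene (ArthCp022) read 1158 and 1179 on wild-type arrays and 536 and 761 on mutant arrays, a 1.83-fold fall with a log2 change of -0.87 (SE 0.23, n = 2 per genotype, adjusted p = 0.0189 in limma). Both wild-type arrays were close together and above both mutant arrays. The gene did not pass with smg7b replicate 1 left out (-0.62, adjusted p = 0.370) and once the Actin ratio entered as a covariate (-0.66, SE 0.31, adjusted p = 0.157). Over all fits the log2 difference ran from -1.12 to -0.62. Its partner psaB read 3540 and 5749 on wild-type arrays and 6149 and 4860 on mutant arrays, with overlapping genotypes and a log2 difference of 0.28 (95% interval -0.45 to 1.00). For psaC, which carries the iron-sulphur clusters that reduce ferredoxin, the signals of 538 and 399 on wild-type arrays and 579 and 521 on mutant arrays also overlapped. The small subunits psaI and psaJ gave 0.62 (SE 0.32) and -0.24 (SE 0.25), the latter with 2117 and 2598 in wild type just above 2066 and 1907 in smg7b. The assembly factors ycf3 and ycf4 gave -0.08 and 0.04, both with overlapping genotypes.

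Photosystem II, the water-splitting complex, had no call among 14 subunit genes in limma (1, psbL, at an unadjusted p under 0.05), with a median log2 difference of 0.27 and 10 positive values. Its reaction centre proteins D1 and D2 are encoded by psbA and psbD. Signals of psbA were 2296 and 6088 on wild-type arrays and 6670 and 4432 on mutant arrays, so that the wild-type arrays lay further apart than the mutant arrays. For psbD they were 508 and 596 on wild-type arrays and 540 and 441 on mutant arrays, a log2 difference of -0.17 (SE 0.20). D1 is the protein replaced most often in light, and its gene gave 0.54 (SE 0.42, adjusted p = 0.406).

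The inner antenna proteins CP47 and CP43 are encoded by psbB and psbC. The psbB gene showed the widest gap between the wild-type arrays of all 68 genes. It read 1038 and 4138 on wild-type arrays and 3872 and 2072 on mutant arrays, a log2 gap of 2.00 between the wild-type arrays against a difference of 0.45 (SE 0.51) between genotypes. For psbC the values were 1309 and 1925 on wild-type arrays and 2137 and 1941 on mutant arrays, with smg7b just above (0.36, SE 0.26, adjusted p = 0.359).

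Cytochrome b559 of photosystem II is made of the products of psbE and psbF. The psbE gene, at 1892 and 1004 on wild-type arrays and 909 and 1287 on mutant arrays, had the lowest difference of the complex, -0.35 (SE 0.30). Unlike most of these genes it was higher in wild-type replicate 1 than in replicate 2. The psbF gene lay within a narrow range across the 4 arrays (2329, 2273, 2265 and 2114), with smg7b just below wild type. The highest difference was that of psbL, a small subunit at the dimer interface, with 327 and 508 on wild-type arrays and 756 and 533 on mutant arrays (0.64, SE 0.25, adjusted p = 0.0982). The other small subunits ran from -0.27 for psbH, with smg7b below wild type, to 0.61 for psbI, with smg7b above. The assembly factor psbN, encoded on the opposite strand within the psbB cluster, gave 0.61 (SE 0.33).

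The cytochrome b6f complex, which links the photosystems, had no call among 6 genes in limma (0 also at an unadjusted p under 0.05), and wild-type replicate 1 was the lowest array for all 6. Cytochrome f, encoded by petA, read 1464 and 2426 on wild-type arrays and 3250 and 2641 on mutant arrays. Its genotypes did not overlap, and the difference of 0.64 (SE 0.29) had an adjusted p of 0.149. Cytochrome b6 (petB) and subunit IV (petD) gave 0.28 and 0.35, with wild-type replicate 2 at 7164 for petB, above both mutant arrays (6990 and 5545). The small subunits petG, petL and petN gave -0.14, 0.03 and 0.55.

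The chloroplast ATP synthase held the 1 gene called higher among the 68. The atpH gene (ArthCp009), which encodes the subunit of the membrane ring turned by protons, read 1438 and 1287 on wild-type arrays and 2577 and 2258 on mutant arrays. This is 1.77-fold higher, with a log2 change of 0.83 (SE 0.23, n = 2 per genotype, adjusted p = 0.0279 in limma), and the genotypes were well apart. The log2 difference stayed between 0.64 and 1.00 in all fits. It did not pass in limma with smg7b replicate 1 left out (0.73) or with smg7b replicate 2 left out (0.92). It also fell short with the Actin ratio as a covariate (0.84, adjusted p = 0.117) and without the filter on dim probe sets (adjusted p = 0.0883). The same held after median centring (0.71, adjusted p = 0.0525) and after centring on the other probe sets (0.71, adjusted p = 0.0529). With chloroplast-encoded genes centred on their own median it was 0.64 (adjusted p = 0.106).

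The other ATP synthase genes did not pass. The stalk subunit gene atpF, which has an intron, read 1285 and 1749 on wild-type arrays and 1077 and 1349 on mutant arrays, the lowest difference of the complex at -0.31 (SE 0.24). The catalytic head genes atpA and atpB gave 0.37 and 0.11, with atpB at 5416 and 8781 on wild-type arrays against 8006 and 6957 on mutant arrays. The genes atpE and atpI, for the epsilon and a subunits, gave 0.45 and 0.06. In these 5 genes the genotypes overlapped, wild-type replicate 2 being above replicate 1 in each.

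Rubisco, the enzyme that fixes carbon dioxide, has its catalytic large subunit encoded by rbcL. The rbcL probe set read 514 and 342 on wild-type arrays and 646 and 635 on mutant arrays, with both mutant arrays above both wild-type arrays. The log2 difference was 0.61 (SE 0.23, adjusted p = 0.0776 in limma), short of the threshold. Without wild-type replicate 1 it was 0.90 (adjusted p = 3.78e-04) and without wild-type replicate 2 it was 0.32 (adjusted p = 0.268). It passed once the Actin ratio entered as a covariate (0.96, SE 0.28, adjusted p = 0.00864), a fit that, like both of those, took its spread from the intensity trend alone. Over all fits the adjusted p ran from 3.78e-04 to 0.365. Wild-type replicate 1 was here above replicate 2, against the direction of most of these genes.

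The NDH complex, which carries electrons around photosystem I, had no call among 9 tested genes in limma, and 1 (ndhH) at an unadjusted p under 0.05. The ndhH gene was the 1 gene with a negative difference, at 84.5 and 81.4 on wild-type arrays and 61.6 and 54.8 on mutant arrays (-0.51, SE 0.22, adjusted p = 0.128). Its genotypes did not overlap. The highest value was that of ndhG, which read 137 and 497 on wild-type arrays and 450 and 357 on mutant arrays (0.62, SE 0.43). The log2 gap of 1.86 between its wild-type arrays was 1 of the widest, and ndhE followed with 312 and 920 (gap 1.56) and a difference of 0.58 between genotypes. The other tested genes, ndhA, ndhC, ndhD, ndhI, ndhJ and ndhK, gave 0.14 to 0.52 with overlapping genotypes. The untested ndhF read 14.2 and 11.97 on wild-type arrays and 14.0 and 13.7 on mutant arrays.

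**Figure D3:**
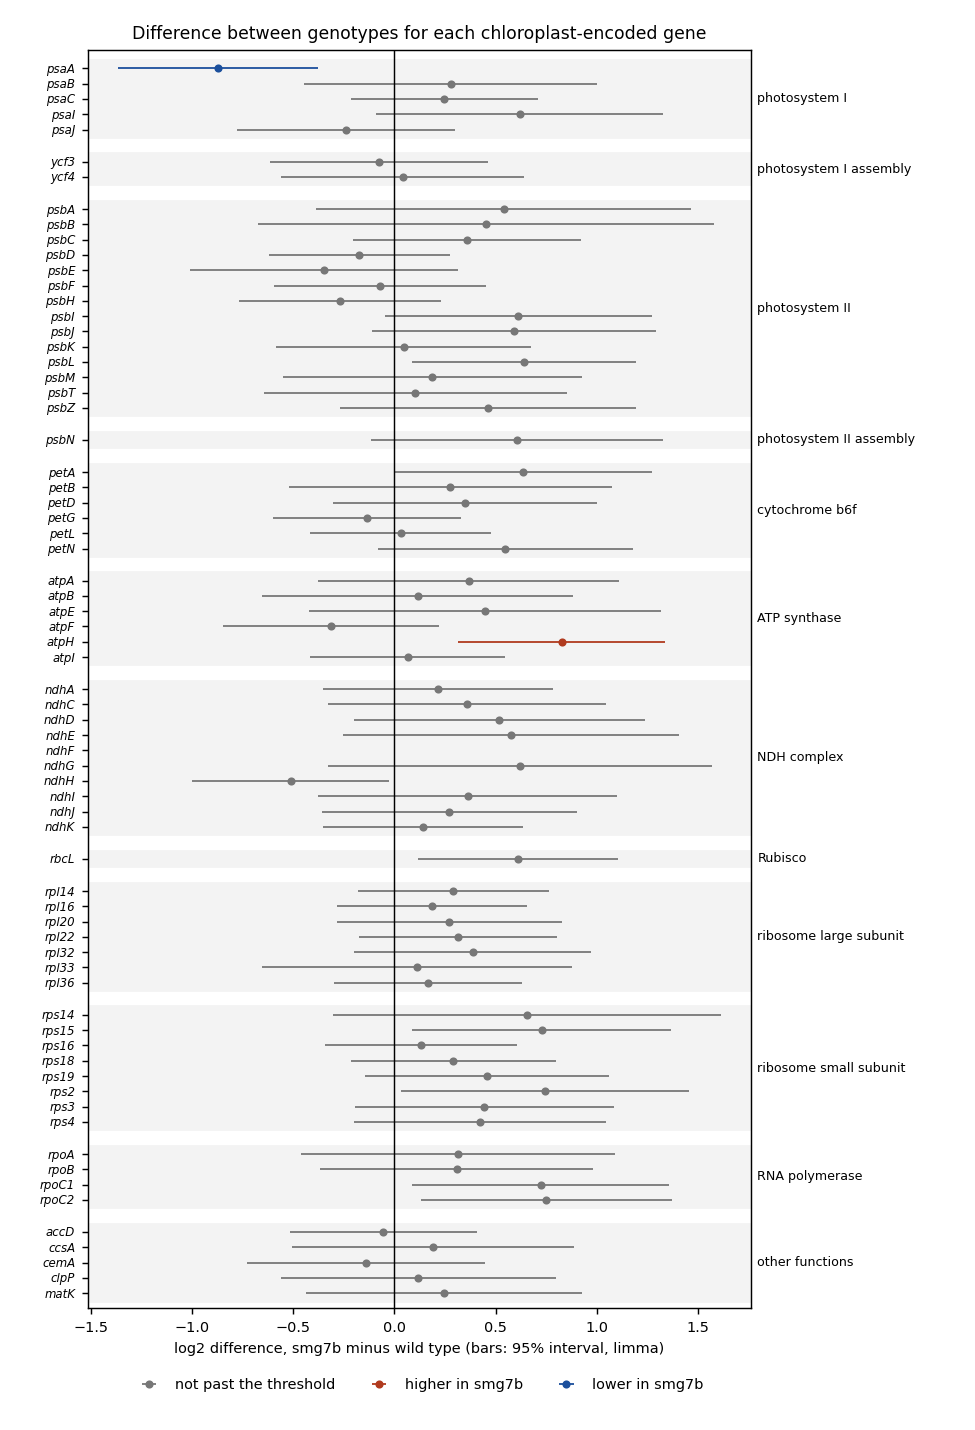
Each row is a chloroplast-encoded gene, grouped by complex, with its log2 difference (smg7b minus wild type, dot) and 95% interval (bar) from limma. Most dots lie right of 0 with intervals that cross it, and psaA (-0.87) and atpH (0.83) are the coloured genes past the threshold, while ndhF was not tested.

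Genes for ribosomal proteins gave positive differences throughout, 15 of 15, with no call in limma and 2 (rps2 and rps15) at an unadjusted p under 0.05. The 7 genes of the large subunit ran from 0.11 (rpl33) to 0.39 (rpl32) and the 8 of the small subunit from 0.13 (rps16) to 0.74 (rps2). The count of positive values was 14 after median centring, 11 without smg7b replicate 1, 11 with these genes centred on the median of all chloroplast-encoded genes and 3 once the Actin ratio entered as a covariate. The rps2 gene read 502 and 1099 on wild-type arrays and 1469 and 1052 on mutant arrays (SE 0.33, adjusted p = 0.134), so wild-type replicate 2 lay between the mutant arrays. For rps15, at 115 and 152 on wild-type arrays and 309 and 155 on mutant arrays, smg7b replicate 1 alone stood high (0.73, SE 0.29, adjusted p = 0.103). The same array set the value of rps14, which read 17.9 and 18.3 on wild-type arrays and 47.3 and 17.1 on mutant arrays. The wild-type mean of rps14 (log2 4.18) lay under the filter at 4.32, so rps14 was tested only through smg7b replicate 1. Its positive value, counted in the 15 of 15 and in the 56 of all tested genes, was thus favoured by the filter.

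The genes of the plastid RNA polymerase also gave 4 positive differences and no call in limma, with 2 (rpoC1 and rpoC2) at an unadjusted p under 0.05. Both lie in the rpoB operon, and at least 20.3% of all tested probe sets pass that threshold. The catalytic subunit gene rpoC2 read 111 and 185 on wild-type arrays and 310 and 188 on mutant arrays (0.75, SE 0.28, adjusted p = 0.0851). The rpoC1 gene, for another part of the catalytic core, read 620 and 1104 on wild-type arrays and 1633 and 1142 on mutant arrays (0.72, SE 0.29, adjusted p = 0.102). In both, smg7b replicate 1 was high while smg7b replicate 2 lay just above wild-type replicate 2. The dim rpoB read 25.1 and 20.8 on wild-type arrays and 28.5 and 28.1 on mutant arrays (0.31), and rpoA, for the assembly subunit, gave 0.31 with overlapping genotypes. With the Actin ratio as a covariate 1 of these 4 values was positive, and rpoC2 gave -0.03.

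The remaining 5 genes serve other functions and gave -0.14 to 0.24, all with overlapping genotypes. They are accD for fatty acid synthesis (-0.06), the protease subunit gene clpP (0.12), ccsA for cytochrome c assembly (0.19), the envelope protein gene cemA (-0.14) and the intron maturase gene matK (0.24). In all 5, wild-type replicate 2 was above replicate 1, as in matK at 1680 and 3203 on wild-type arrays against 2791 and 2702 on mutant arrays. By transcription, the 4 genes listed as read mainly by NEP (rpoB, rpoC1, rpoC2 and accD) had a median difference of 0.52 and the 26 subunit genes of the photosystems, cytochrome b6f and Rubisco 0.28, with 0 and 1 calls. The 3 rpo genes among the former lie in 1 operon. In rpoC1 and rpoC2, smg7b replicate 1 alone stood high (1633 against 1142 and 310 against 188 in smg7b replicate 2). The 2 medians were not tested against each other. The 9 tested genes with an intron had a median of 0.18 and the 59 without one 0.31.

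Values differed among the genes of 1 operon. The 2 called genes lie in operons whose other members gave no call in limma. In the psaA operon, the difference went from -0.87 for psaA to 0.28 for psaB and 0.65 for rps14, the last set by 1 array. In the rps2 operon it was 0.74 for rps2, 0.06 for atpI, 0.83 for atpH, -0.31 for atpF and 0.37 for atpA, so that atpH lies between neighbours without a call. In the psbE operon the values were -0.35 for psbE, -0.07 for psbF, 0.64 for psbL and 0.59 for psbJ. In the ndhH operon they were -0.51 for ndhH, 0.22 for ndhA, 0.36 for ndhI, 0.62 for ndhG, 0.58 for ndhE, 0.25 for psaC and 0.52 for ndhD. Among the 14 operons with at least 2 tested genes, the last gene was above the first in 10 and below it in 4.

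The count was similar between arrays of 1 genotype. For wild-type replicate 2 minus replicate 1 the last gene was above the first in 10 of the 14 operons, and for smg7b replicate 1 minus replicate 2 in 9. In the psbE operon the wild-type gap went from -0.91 for psbE to -0.03 for psbF, 0.63 for psbL and 1.05 for psbJ. In the rpoB operon it went from -0.27 for rpoB to 0.83 for rpoC1 and 0.73 for rpoC2. The psbB operon ran the other way, from a gap of 2.00 for psbB to 0.96 for petD. These counts were taken after the values had been seen, the genotype contrast shares its arrays with both replicate contrasts, and the position of each probe set within its gene was not analysed here.

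**Figure D4:**
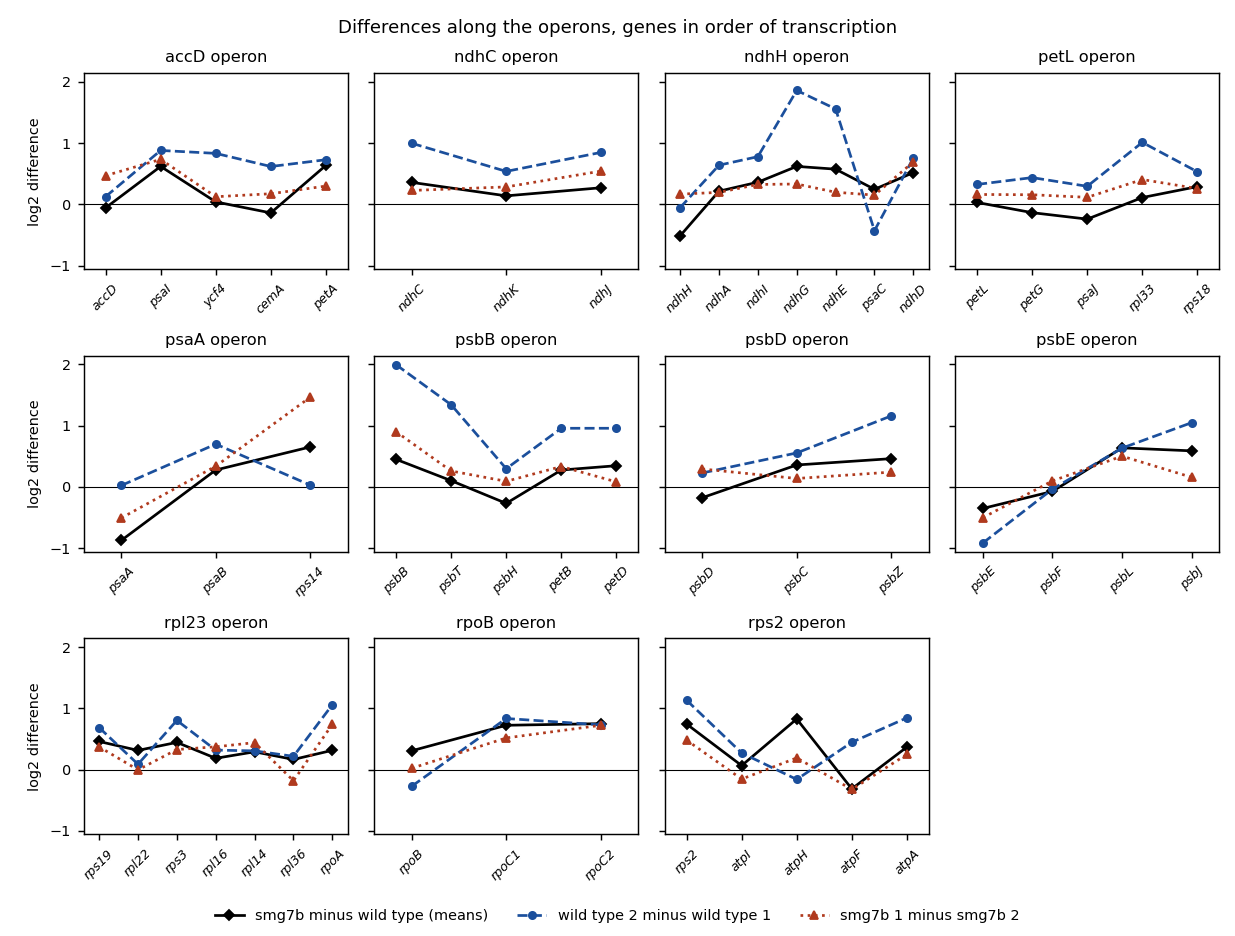
Each panel is 1 of the 11 operons with at least 3 tested genes, with genes along the x axis in order of transcription and log2 differences on the y axis for smg7b minus wild type (diamonds), wild type 2 minus 1 (circles) and smg7b 1 minus 2 (triangles). The psbE and rpoB operons start at their lowest value and the psbB operon at its highest in all 3 series, and atpH stands above atpI and atpF in the comparison of genotypes.

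Single arrays decided how many of these genes were called. Without wild-type replicate 1 the median difference was -0.072 with 2 genes higher and 4 lower in limma (8.82% of the 68, against 22.4% of all tested probe sets). Without wild-type replicate 2 it was 0.63 with 41 higher and 2 lower (63.2% against 31.7%). Without smg7b replicate 1 it was 0.15 and limma called 0 genes, also at an unadjusted p under 0.05, against 7.18% of all tested probe sets. Without smg7b replicate 2 it was 0.44 with rps15 and rpoC2 higher and psaA lower (4.41% against 11.3%). In both fits that left out a wild-type array, limma found no spread beyond its intensity trend, so those p-values are too small for genes that vary more, as also with the Actin ratio as covariate.

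Direction too could depend on the wild-type array. Called in both of those fits were psaA, atpH, psbB and psbT. The first pair kept its sign, at -0.88 and -0.86 for psaA and 0.91 and 0.75 for atpH. The other two changed sign, psbB from -0.55 without wild-type replicate 1 to 1.45 without wild-type replicate 2, and psbT from -0.57 to 0.77. Among all tested probe sets 2265 were called in both fits, and 6 of them changed sign. With the Actin ratio as a covariate the median of the 68 genes was -0.27, with 10 positive values, rbcL higher and psbB and psbT lower (4.41% against 12.5% of all tested probe sets). Since that ratio was higher on both mutant arrays than on both wild-type arrays, this fit cannot fully separate it from genotype.

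**Figure D5:**
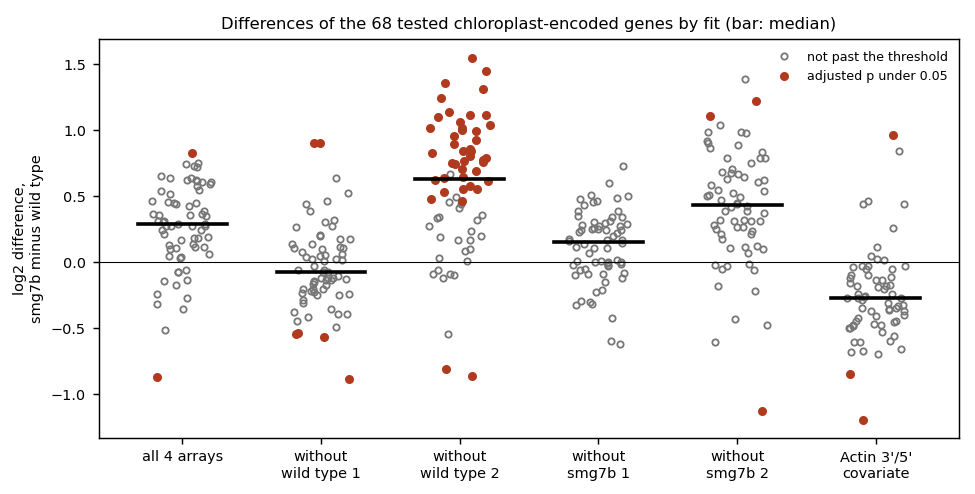
Each point is the log2 difference (smg7b minus wild type) of 1 of the 68 tested chloroplast-encoded genes in the fit named on the x axis, filled where the adjusted p was under 0.05, with the median as a bar. The median is 0.29 with all 4 arrays, -0.072 without wild type 1, 0.63 without wild type 2, 0.15 without smg7b 1, 0.44 without smg7b 2 and -0.27 once the Actin ratio entered as a covariate.

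Nuclear genes for proteins of the same complexes gave mostly negative differences. Of 114 genes listed for photosystem, cytochrome b6f, ATP synthase, Rubisco, NDH, plastid ribosome, Clp protease, acetyl-CoA carboxylase and plastid transcription proteins, 19 had a single-gene probe set and 18 were tested. Of these 18, 16 had a negative difference, as had 6973 of all 13648 tested probe sets, and the median was -0.43. In limma 5 were lower and none higher, against a background of 9% lower and 11.3% higher. The called genes were those of the plastid ribosomal proteins PRPS6 (AT1G64510, -1.10, SE 0.28, adjusted p = 0.0170) and PRPL19 (AT5G47190, -0.97, SE 0.22, adjusted p = 0.00901), of the NDH subunits NDHN (-0.77) and NDHL (-0.61), and of the photosystem II protein PSBY (-0.84). In the ribosome and NDH lists this stood, untested as a contrast, as 5 of 5 and 3 of 3 tested nuclear genes below 0 beside 15 of 15 and 8 of 9 plastid genes above 0. Of those 15, rps14 was tested only through smg7b replicate 1. The plastid counts depended on the fit. Without wild-type replicate 1 they were 14 of 15 and 1 of 9 above 0. With the Actin ratio as a covariate they were 3 of 15 and 0 of 9. The nuclear counts were not retaken in these fits. The other photosystem II gene, PSBW, gave -0.03. Nuclear photosystem I genes gave 0.24 for PSAE1 and -0.61 for PSAN, and cytochrome b6f, ATP synthase, Rubisco and Clp protease genes 0 calls among 6, from -0.58 for CLPP4 to 0.35 for ATPC2. No sigma factor, PEP-associated protein or acetyl-CoA carboxylase gene had a single-gene probe set here, and of the phage-type polymerases RPOTmp alone did, too dim to be tested. Their levels are not analysed here.

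Probe sets of the mitochondrial genome, the other organelle genome, gave 12 positive differences among 13 tested (of 23), with a median of 0.59, where 6675 of all 13648 tested probe sets were positive. Of the 13, 3 were higher in limma, against a background of 11.3%. They were ccb382 at 1.19 (SE 0.19), nad4L at 1.13 (SE 0.29) and ccb452 at 0.82 (SE 0.26). The wild-type means of nad4L (log2 4.321) and of a nad1 probe set (4.284) lay under the filter at 4.324. Both were thus tested only through the mutant arrays, which favoured their positive values and the nad4L call. The median deviation of the 13 was -0.45 in wild-type replicate 1, -0.12 in wild-type replicate 2, 0.56 in smg7b replicate 1 and 0.02 in smg7b replicate 2, with both wild-type arrays below both mutant arrays. Their median signal gave another order, at 32.1 and 45.6 on wild-type arrays and 71.1 and 44.4 on mutant arrays. The genotypes overlapped for 5 of the 13, near the share over all tested probe sets (5275 of 13648). The 3 called genes were named after their values were seen. Of the tissue markers, the leaf gene RCA (Rubisco activase) gave -0.35 (SE 0.30) at 4746 and 6341 on wild-type arrays and 4436 and 4187 on mutant arrays, and was the 1 of 9 leaf markers with a single-gene probe set. The root hair gene EXPA7, the 1 of 12 root markers, read 19.0 and 2.43 on wild-type arrays and 1.14 and 4.46 on mutant arrays, above background only in wild-type replicate 1. The part of tissue makeup in the plastid values was not tested beyond these markers.

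Genes in the inverted repeat of the chloroplast genome, or listed under 2 identifiers, were left out by the single-gene rule. They have 8 probe sets, for rpl2, rpl23, rps7, rps12, ndhB, ycf1 and ycf2. Of these, ycf1, a large gene for a protein of the inner envelope, was higher in limma, at 642 and 763 on wild-type arrays and 1386 and 1110 on mutant arrays (0.82, SE 0.22, adjusted p = 0.0212). The other 7 probe sets gave -0.20 (ndhB) to 0.53 (rps12) and did not pass.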

How the data were processed

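Biotin-labelled RNA of 4 samples was measured, with 1 array per sample. The deposited values are 1 linear intensity per probe set, made by the authors with MAS5 and GCOS per the submitters' processing notes (versions not given in the sources used here) and scaled to a common trimmed mean. Groups and replicate numbers came from the titles. After removing 64 control probe sets, log2 intensities with no pseudocount were kept where the mean was at or above the 40th percentile (4.32), leaving 13648 probe sets. Genotype was tested with limma 3.58.1 in R 4.3.3 (lmFit, eBayes with an intensity trend, 11.6 total degrees of freedom, threshold 0.05). This fit was also run on simulated data with independent noise, which cannot show how it treats shifts shared by many genes of an array. An exact permutation test of 1 gene could reach no p below 0.333. Background was the highest Bacillus control signal of each array (6.42 to 9.21).

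Probe sets were named through the platform table and matched by gene identifier to RefSeq (assembly TAIR10.1), mitochondrial ones by symbol, with 13436 of 13513 single-gene probe sets matched by identifier. No coordinates are printed, since no build is named. A gene of a nuclear list was represented by its brightest probe set. Operons, intron and polymerase classes and gene lists were recalled from general knowledge. Members and lists were chosen with earlier results of these data known. Array values were given for called members, the highest and lowest of each complex, the brightest and dimmest, and others chosen after their values were seen; at most 4 genes of a nuclear list were named. Alternatives were other normalizations, filters, a pseudocount of 32, moderation, replicate blocks, each array left out and the Actin ratio as a covariate. The number of arrays limits the precision.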

Additional observations from a re-analysis of the deposited data

How the results depend on the processing

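The count of chloroplast-encoded genes higher in smg7b, 1 with all arrays, was 0 after median centring and after centring on the other probe sets. It was also 0 without the filter and with these genes centred on their own median. Quantile and cyclic loess normalization each called 8.82% of the 68 genes in either direction, against 21.1% and 20.4% of all tested probe sets. The count higher in smg7b was then 5 (psbI, petA, atpH, rbcL and rpoC1). Leaving out 1 array gave 0 to 41. The count of lower genes, 1, was 0 to 4 with 1 array left out and 2 once the Actin ratio entered as a covariate. The median log2 difference, 0.29, ran from -0.072 to 0.63 with 1 array left out and was -0.27 with that covariate. Calls over all probe sets, 2771, ran from 980 to 4325 with 1 array left out and were 1709 with the covariate. The differences of psbB and psbT, 0.45 and 0.10, became -1.19 and -0.85 with the covariate (adjusted p = 0.0227 and 0.0293), and ran from -0.55 to 1.45 and from -0.57 to 0.77 with 1 array left out. In these cases fewer arrays or 1 more term entered the fit; further causes were not tested. Median centring moved the median of all tested probe sets from -0.01 to -0.13 and the share of calls that were higher from 55.7% to 42.2% (42.0% after centring on the other probe sets). Filter at the 60th percentile, pseudocount, floor, robust moderation and no intensity trend left both plastid calls in place. With the replicate number as a block the counts were also 1 higher and 1 lower (2488 calls in all). Same-numbered arrays deviated from their genotype means with a correlation of -0.15. With 2 arrays per genotype this fixes the crossed correlation at 0.15. A crossed block was added after seeing the data. It gave 10 higher and 1 lower among these genes (16.2%) and 3988 calls in all (29.2% of all tested probe sets). This block joins wild-type replicate 2 with smg7b replicate 1, each above the other array of its genotype in 61 of the 68 genes. The fit thus takes up that gap by choice, and its added calls are no independent support. Over 24 named genes and all alternatives, 357 values kept their direction and their side of the threshold, 27 gained a call, 9 lost one, 34 changed sign without a call in either fit and 4 (psbB and psbT, above) changed sign with one. The number of arrays sets the precision.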

Other observations

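The replicate gaps of the 2 genotypes share no array. Across the 68 chloroplast-encoded genes, wild-type replicate 2 minus replicate 1 and smg7b replicate 1 minus replicate 2 had a Pearson's r of 0.34 and a Spearman's rho of 0.38 (0.15 and 0.15 over all tested probe sets). Genes are not independent replicates, and many share an operon, so these are descriptions. In both pairs the array with the higher plastid signals had the higher Actin 3'/5' ratio (8.62 against 2.22 and 25.8 against 9.65), and the part of that ratio in the gaps was not tested.

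The 8 genes with wild-type replicate 1 above replicate 2, chosen after their values were seen, were psaC, psbE, psbF, atpH, ndhF, ndhH, rbcL and rpoB. Among them psbF had the narrowest gap (-0.03) and psbE the widest (-0.91).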
